A study of Homo sapiens with 12 samples.

Results

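Raji is an established cell line from a Burkitt lymphoma, a tumour of germinal centre B cells. The 3 libraries described here came from Raji cells in the high GFP gate that had been given DMSO, the solvent control, for 24 h. They were chosen by those labels alone, as 3 of the 12 libraries of the series, and no other group enters the values. The other 9 libraries come from cells in the low GFP gate or cells given the BCL6 inhibitor FX1, and the series as a whole asks how FX1 acts when SMARCA4, the ATPase of a SWI/SNF chromatin remodelling complex, is degraded through an auxin-inducible degron. All 4 groups carry the same genotype label, Smarca4+/+. The labels also call these 3 libraries untreated. They do not say how the GFP signal relates to SMARCA4, whether the line is 1 clone or whether the 3 replicates are separate cultures, so the spread given below may be technical.

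Burkitt lymphoma is known to resemble the germinal centre B cell. In such cells PAX5, EBF1 and BCL6 hold B-lineage identity and block the plasma cell fate that PRDM1 drives, while MYC raises growth, ribosome and nucleotide synthesis. Many enzymes and signalling proteins of these programs come from families of paralogs, of which a tissue uses some members and leaves others off.

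Levels are TPM, a transcript abundance scaled to the same total in each library, computed from the deposited counts and the exon length of each gene record, so that levels of genes of different length can be compared. A protein-coding gene was called expressed at 1 TPM or more in each of the 3 libraries, silent under 0.1 TPM in each, and low otherwise. Values written with ± are the mean and SD over n = 3 libraries, and lists of 3 values are replicates 1, 2 and 3 in that order. The libraries held 24146581, 34466046 and 25338375 counts in genes. Of 19889 protein-coding genes, 10177 (51.2%) were expressed, 2577 were low and 7135 (35.9%) were silent. A further measure of abundance, 100 TPM or more in each library, was met by 1138 genes (5.72%). The expressed genes had a median coefficient of variation of 3.21% over the 3 libraries, and 10009 of them stayed within 1.5-fold. Between any pair of libraries the variance of expressed genes was 1.67 to 1.75 times the counting variance, so no library repeated another.

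Silence is bounded by depth. A gene with 0 counts in a library could still have a level of up to 3 counts, and that limit reached the threshold of 0.1 TPM for short genes: only 2786 of the 7135 silent genes (39%) were long enough for 3 counts to lie under 0.1 TPM in each library. Each limit given below is the largest of the 3 single-library limits, and 0 counts in all 3 libraries together would allow less. These limits cover counting error only. Some zeros come with a counting limit of another kind. All 17 protein-coding genes of the pseudoautosomal regions, which have an identical copy on both sex chromosomes, had 0 counts, and records with over 50% of their exon bases under another record on the same strand made up 1.31% of expressed, 9.16% of low and 7.23% of silent genes. Such genes are called hard to count below, and their part in a low value was not tested.

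**Figure D1:**
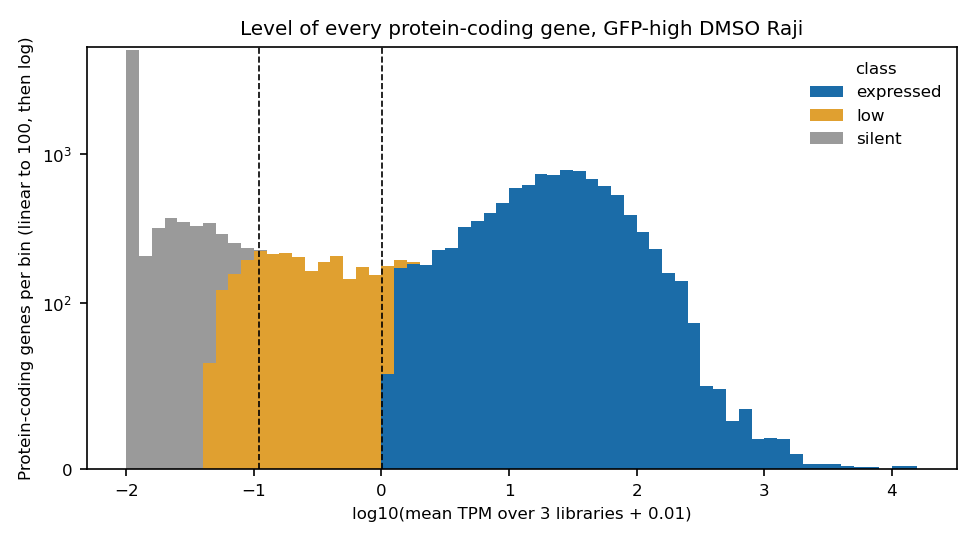
Number of protein-coding genes (y axis, linear to 100 and logarithmic above) against the log10 of the mean TPM over the 3 libraries plus 0.01 (x axis), stacked by class. The 10177 expressed genes form a broad peak around their median of 23.6 TPM, and the bar at the left edge holds genes with no or almost no counts; dashed lines mark 0.1 and 1 TPM.

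The most abundant nuclear protein-coding genes were those of glycolysis, translation, the cytoskeleton and antigen presentation. GAPDH, the glycolytic glyceraldehyde-3-phosphate dehydrogenase, came first at 5959, 5962 and 5963 TPM. RPS12, a protein of the small ribosomal subunit, followed at 4766, 4736 and 4699 TPM, and EEF1A1, the translation elongation factor, at 4462, 4494 and 4529.6 TPM. The 3 libraries differed by a few percent for each of them. Their order rests on the exon length of each gene record, which combines the exons of all its transcripts. In replicate 1 EEF1A1 had 326231 counts over 10063 bases and GAPDH 103742 counts over 2396 bases. The order by transcript length is not given here. The rest of the leading 15 were, by mean TPM, ACTB (3792), EEF2 (3705), HLA-DRA (3285), RPS2 (2941), PTMA (2716), HSP90AB1 (2545), RPS6 (2169.6), RPS18 (2069), RPL7A (2031), H1-5 (1992), PABPC1 (1903) and HSPA8 (1893). H1-5 is a replication-dependent linker histone, and HLA-DRA is the only gene of the 15 whose expression is restricted to antigen-presenting and related cells. Abundance was spread over many genes: 709 genes made up 50% of the nuclear protein-coding TPM. The libraries were made by ribosomal RNA depletion, so RNAs without a poly(A) tail are present, and the leading non-coding records were RN7SL1, the RNA of the signal recognition particle, at 19721, 17793 and 20352 TPM, MALAT1 at 2749, 2739 and 2741 TPM, the small nucleolar RNA SNORA73B at 2462, 2654 and 2328 TPM, a ribosomal RNA record with no symbol, and RNY1 at 1615, 1949 and 1445 TPM. The ribosomal RNA record was the one leading record in which a library stood apart, with 819, 829.5 and 3511 TPM. Records under 300 bases held 0.732% of counts but 12% of TPM.

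The B-cell identity of the line was plain at its surface. Of 28 genes on a list of B-cell surface proteins and coreceptors, 25 were expressed, 1 was low and 2 were silent, with a list median of 80.9 TPM against 1.58 TPM over all protein-coding genes. CD79A, a signalling chain of the B-cell receptor, stood at 627, 589 and 605 TPM and its partner CD79B at 301, 303 and 309 TPM. MS4A1, which encodes CD20, stood at 576, 570.0 and 566 TPM. All 9 of these values lay above 100 TPM and no gene's 3 values spread widely. CD53 (455 ± 4.08 TPM), CR2 (437 ± 1.69 TPM) and CD22 (433 ± 5.13 TPM) completed the upper end. CR2 encodes CD21, the complement receptor that Epstein-Barr virus uses for entry, and Raji is a line that carries that virus; viral RNA was not analysed here. At the lower end, FCRL2 (3.19 ± 0.142 TPM), FCRL1 (2.79 ± 0.727 TPM) and TNFRSF17 (2.65 ± 0.255 TPM), which encodes the plasma cell receptor BCMA, were expressed at a few TPM. FCRL5 lay at the threshold and was low, at 0.987, 0.945 and 0.994 TPM. CD24, a surface glycoprotein of immature B cells, was silent at 0, 0.0311 and 0 TPM, and CR1, the complement receptor CD35, at 0, 0.0153 and 0 TPM. The complement receptors CR2 and CR1 thus lay at opposite ends of the same list.

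Transcription factors of the B lineage were almost all expressed, 21 of 22 (95.5%, beside 51.2% of all protein-coding genes), with 7 at 100 TPM or more. POU2AF1, the octamer coactivator OCA-B, was highest at 251, 245 and 243 TPM. BCL6, the repressor that FX1 targets, followed at 208, 207 and 207 TPM, TCF3 at 157, 161 and 164 TPM and PAX5 at 93.2, 93.3 and 95 TPM. These 4 factors held their order in every library. ETS1 (152 TPM) and IKZF3 (139 TPM) lay between TCF3 and PAX5 by mean level. EBF1, the pioneer factor of the lineage, stood at 48.1 ± 1.73 TPM. The lowest members were FOXP1 (5.21 ± 0.203 TPM), RUNX1 (4.3 ± 0.211 TPM), MEF2B (3.47 ± 0.825 TPM), BACH2 (2.31 ± 0.433 TPM) and LEF1 (0.0745 ± 0.027 TPM), the last a Wnt-pathway factor of B-cell progenitors. MEF2B, which is mutated in germinal centre lymphomas, is hard to count because its exons are shared with a readthrough gene.

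Germinal centre markers were expressed in 23 of 25 cases (92%, beside 51.2% of all protein-coding genes), with a median of 48.5 TPM. MARCKSL1 (759.7 ± 5.65 TPM), IRAG2 (615 ± 0.671 TPM), GCSAM (271 ± 1.18 TPM) and RGS13 (209 ± 1.16 TPM) led the list together with BCL6. RGS13 dampens chemokine receptor signals and GCSAM is a membrane adaptor of germinal centre cells. SUGCT (1.35 ± 0.0402 TPM) and the repair glycosylase NEIL1 (0.128 ± 0.0759 TPM) were at the low end. P2RY8, a G-alpha-13-coupled receptor, had 0 counts, but it is a pseudoautosomal gene and its level could not be read. Genes linked to the light zone and to activation were also present, 17 of 18, at a median of 61.5 TPM. CD83 led at 231, 238 and 233 TPM, followed by TNFAIP3 (142 ± 3.32 TPM), ICAM1 (139.6 ± 2.45 TPM), NFKBIA (125 ± 2.9 TPM) and TRAF1 (99.2 ± 1.6 TPM). The immediate early genes of that list lay at its bottom: NR4A1 at 3.55 ± 0.138 TPM, EGR2 at 2.47 ± 0.695 TPM and EGR3, silent, at 0.031 ± 0.0281 TPM.

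Of 14 plasma cell genes 12 were expressed (85.7%, beside 51.2% of all protein-coding genes), 1 was low and 1 silent. JCHAIN, which joins IgM and IgA into polymers, stood at 1443, 1451 and 1453 TPM, and MZB1 (189.8 ± 0.458 TPM), SEL1L3 (128 ± 3.37 TPM) and XBP1 (108 ± 0.648 TPM) also exceeded 100 TPM. The factors that drive the fate were lower: PRDM1, which encodes BLIMP1, stood at 8.83, 9.22 and 8.63 TPM and IRF4 at 5.92, 6.43 and 5.4 TPM. Both passed 1 TPM in every library, so neither was silent. SDC1, the plasma cell surface proteoglycan CD138, had 0 counts in all 3 libraries, with a single-library limit of up to 0.114 TPM. CCR10, a homing receptor of IgA plasma cells, was low at 0.0456 ± 0.0507 TPM. BCL6 was thus 208 TPM against 8.89 TPM for PRDM1, the gene it represses.

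Other stages of B-cell life gave mixed lists. Among 16 genes of naive and memory cells, 10 were expressed (62.5%, beside 51.2% of all protein-coding genes). The list was led by CD27 (187 ± 6.08 TPM), FCER2 (179 ± 4.52 TPM), TLR10 (126 ± 2.35 TPM), CCR7 (55.2 ± 1.85 TPM) and GPR183 (36.1 ± 3.06 TPM). The 4 silent genes were CD44 at 0.014 ± 0.0145 TPM and HHEX, KLF2 and KLF4, each with 0 counts in every library. KLF2 keeps resting lymphocytes quiescent, and 0 counts allow it up to 0.146 TPM. HHEX is allowed up to 0.164 TPM and KLF4 up to 0.113 TPM. Of 12 progenitor genes, 4 were expressed (33.3%, beside the same 51.2%): MYB (20.4 ± 0.692 TPM), VPREB1 (15.3 ± 2.33 TPM), SOX4 (14.2 ± 0.766 TPM) and IGLL1 (7.09 ± 0.918 TPM). VPREB1 and IGLL1 together form the surrogate light chain of pre-B cells. The recombinase genes were not expressed with them: RAG1 was at 0.0702, 0.0736 and 0.0167 TPM, RAG2 had 0 counts (up to 0.118 TPM) and DNTT was low at 0.137 ± 0.182 TPM. IL7R was silent at 0.0149 ± 0.0129 TPM, and CD34, ERG, FLT3 and KIT had 0 counts.

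**Figure D2:**
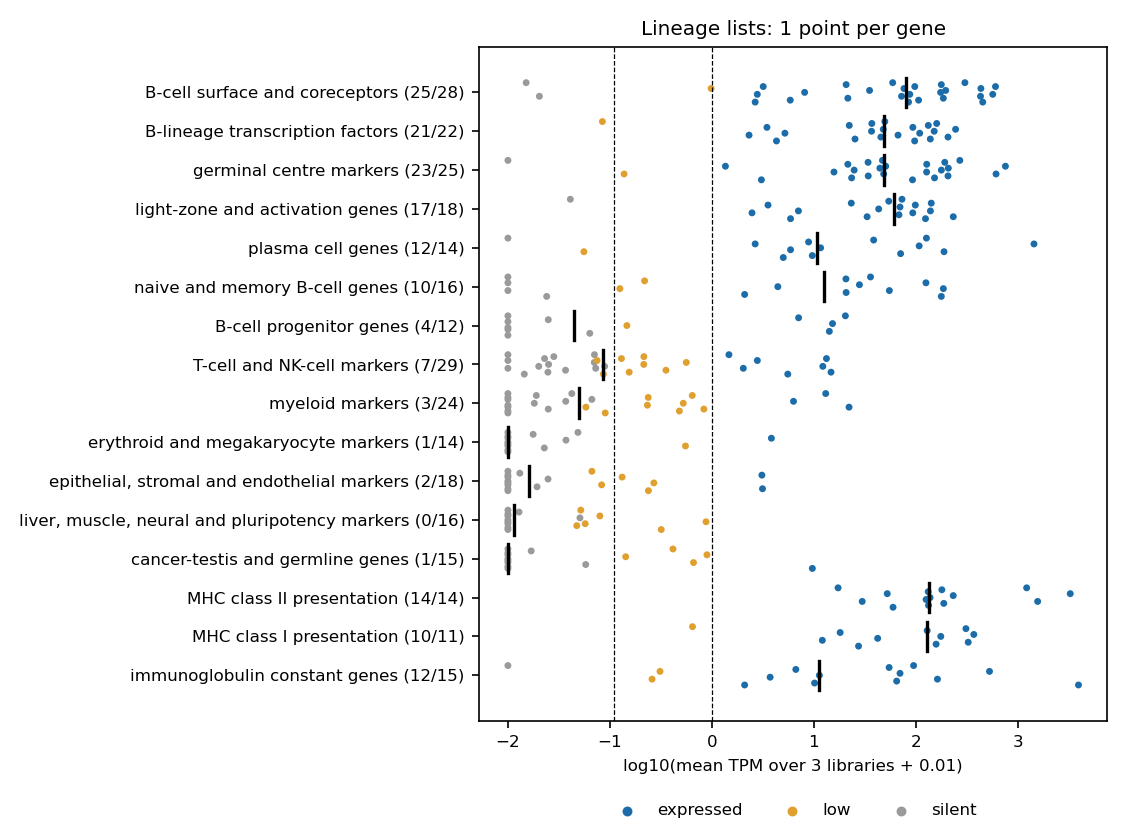
Each point is 1 gene of a lineage list, placed by the log10 of its mean TPM over 3 libraries plus 0.01 and coloured by class; a black bar marks the list's median, dashed lines mark 0.1 and 1 TPM, and brackets give expressed over measured genes. Most genes of the B-cell, germinal centre and MHC lists lie to the right of the 1 TPM line, while the erythroid, epithelial and pluripotency lists pile up at 0.

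Markers of other cell types were mainly silent or low. The shares to set beside these lists are 51.2% expressed and 35.9% silent over all protein-coding genes. None of 16 liver, muscle, neural and pluripotency genes was expressed, nor were 13 of 14 erythroid and megakaryocyte genes (EPOR was, at 3.83 ± 0.37 TPM) or 16 of 18 epithelial, stromal and endothelial genes (ACTA2 was at 3.13 ± 0.262 TPM and COL1A1 at 3.09 ± 0.262 TPM). In the T-cell and NK-cell list 7 of 29 were expressed (24.1%) and 14 silent (48.3%). The kinase LCK stood at 15.1, 14 and 15.2 TPM, CD3D, a chain of the T-cell receptor complex, at 12.9, 14.6 and 12.5 TPM, and TRAC, the constant gene of the alpha chain, at 11.1, 12.7 and 13 TPM. NKG7 (5.55 ± 0.491 TPM), CD247 (2.03 ± 0.182 TPM) and CD3E (1.46 ± 0.238 TPM) were lower. Other T-cell markers of the list, CD2 (0.0268 TPM), CD5 (0.0147 TPM), CD4 (0.0101 TPM), CD8A (0 counts) and ZAP70 (0.0626 TPM), were silent, and GZMA and NCAM1 had 0 counts. The summed level of the 29 genes was 52.8, 55.8 and 54.1 TPM. In bulk RNA a few cells with much of an RNA and many cells with little of it cannot be told apart. Of 24 myeloid genes 3 were expressed (12.5%), CEBPB (22.2 ± 1.53 TPM), FCER1G (13.1 ± 0.613 TPM) and AIF1 (6.32 ± 0.765 TPM), while MPO, ELANE, S100A8, CD163 and CEBPA had 0 counts. Of 15 cancer-testis and germline genes only the meiotic cohesin STAG3 was expressed (9.68 ± 0.425 TPM), and PRAME and SSX1 were low at 0.886 and 0.652 TPM.

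Antigen presentation was expressed without a gap on the class II side. All 14 genes of MHC class II presentation were expressed and 10 reached 100 TPM in each library. HLA-DRA stood at 3297, 3297 and 3259 TPM. CD74, the invariant chain that guides class II molecules to endosomes, stood at 1569, 1559 and 1592 TPM and HLA-DRB1 at 1198, 1267 and 1217 TPM. The other class II genes were all lower, from HLA-DPA1 at 234 ± 3.39 TPM downwards. CIITA, a coactivator of class II genes, stood at 53.4, 52 and 52.5 TPM, and the lowest gene was HLA-DOB (17.3 ± 1.17 TPM), a chain of the modulator HLA-DO. The HLA genes vary between people and are alike among themselves, so reads of an allele far from the reference can be lost or counted under another HLA gene. Whether this line carries each listed HLA gene was not tested. Class I presentation was expressed in 10 of 11 genes, with B2M at 372 ± 3.57 TPM, HLA-B at 311 ± 0.20 TPM, NLRC5, the class I coactivator, at 12.1 ± 0.631 TPM and HLA-G low at 0.637 ± 0.772 TPM.

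The class II genes with a single promoter share a short word in it. Their list was made with earlier results of these data known. The Y box, an inverted CCAAT word, is a textbook part of class II promoters, bound by the factor NF-Y. CCAAT or its reverse complement ATTGG was found in the 300-base RefSeq promoter (250 bases before to 50 after the start, build GRCh38.p14, both strands) of 10 of the 10 class II genes that have a single promoter there, against 40.2% of the 5983 expressed genes with a single promoter and 37.6% of all 11307. In these 10 genes the match nearest to the start began between 22 (HLA-DMB) and 90 (HLA-DRB5) bases upstream. The 150 bases before the start are shown for 3 of the genes, with CCAAT or ATTGG in capitals, because they differ in level and still hold the word within the same stretch. CD74 is on the minus strand at chr5:150412911-150413060, HLA-DPB1 on the plus strand at chr6:33075840-33075989 and HLA-DOA on the minus strand at chr6:33009592-33009741.
CD74: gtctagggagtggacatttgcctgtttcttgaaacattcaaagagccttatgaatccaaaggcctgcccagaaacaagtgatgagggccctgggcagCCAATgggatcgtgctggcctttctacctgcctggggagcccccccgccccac
HLA-DPB1: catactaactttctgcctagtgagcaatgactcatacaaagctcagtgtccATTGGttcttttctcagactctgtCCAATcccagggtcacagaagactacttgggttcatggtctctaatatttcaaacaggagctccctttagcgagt
HLA-DOA: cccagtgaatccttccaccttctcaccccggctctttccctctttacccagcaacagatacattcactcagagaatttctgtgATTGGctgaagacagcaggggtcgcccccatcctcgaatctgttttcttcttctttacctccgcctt
HLA-DPB1 holds the word on both strands in this window, CD74 and HLA-DOA once each. Their levels were 1573, 181 and 134 TPM, so the number of matches did not order the levels of these 3 genes. Matches were counted in either orientation and anywhere in the window, and the match in CD74 is CCAAT and not the inverted form. A match therefore describes letters in the window, and not a Y box or a bound site.

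Immunoglobulin transcripts were dominated by IgM. IGHM, the mu constant gene, stood at 3963, 3903 and 4002 TPM and IGKC, the kappa constant gene, at 531, 514 and 546 TPM. Replicate 2 was the lowest for IGHM and the 3 libraries lay within a few percent. The lambda genes IGLC2 (164 ± 34.6 TPM) and IGLC3 (70.2 ± 7.44 TPM) were also expressed, but they are near-identical to each other, and IGLC1, which had 0 counts, shares their sequence; how reads were divided among them is not known. IGHG1 stood at 95.5 ± 2.22 TPM with the same limit, IGHA1 at 54.9 ± 2.15 TPM, IGHE at 3.73 ± 0.613 TPM and IGHD at 2.09 ± 0.126 TPM. Each locus had 1 leading V segment. IGHV3-21 stood at 810.4, 841 and 742 TPM and held 66.5% ± 1.87 of the summed TPM of 151 heavy-chain V records. IGKV3-20 (153 ± 13.9 TPM) held 53.9% ± 3.5 of the kappa records, and IGLV6-57 (209 ± 10.4 TPM) held 69.9% ± 1.78 of the lambda records. Reads from a mutated V segment can map to a relative, so these shares describe mapped counts.

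Signalling from the B-cell receptor was expressed nearly whole: 29 of 32 genes were expressed (90.6%, beside 51.2% of all protein-coding genes), 3 were low and none was silent. FGR, a SRC-family kinase, was highest at 303, 307 and 310.3 TPM, followed by the PI3K adaptor PIK3AP1 at 309, 297 and 304 TPM. The phosphatase PTPRC (CD45) stood at 276 ± 1.95 TPM, CSK at 219 ± 3.27 TPM and PLCG2, the phospholipase of this pathway, at 155 ± 0.966 TPM. LYN, SYK and BTK, the kinases that start the cascade, lay close together at 125 ± 1.74, 121 ± 2.16 and 110.3 ± 0.809 TPM. Near the bottom of the list were GAB1 (7.11 ± 0.414 TPM), CBLB (14 ± 0.521 TPM) and the low genes VAV3 (0.509 ± 0.0887 TPM) and GAB2 (0.383 ± 0.101 TPM). Downstream, 20 of 23 genes of the PI3K, AKT and mTOR list were expressed. PIK3CD, the leukocyte catalytic subunit, led at 129, 129.6 and 128 TPM. PIK3R5, a regulatory subunit, was silent at 0.0321 ± 0.018 TPM.

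The NF-kB list was the only signalling list with every gene expressed, 24 of 24. Of these 24 genes 1 is hard to count. BIRC3, an inhibitor of apoptosis and a target of the pathway, was highest of all 316 signalling genes at 495, 495 and 496 TPM. The feedback inhibitors TNFAIP3 (142 TPM) and NFKBIA (125 TPM) and the subunit gene NFKB2 (135 ± 2.88 TPM) came next. IKBKB (5.99 ± 0.225 TPM) and IKBKG (2.51 ± 0.257 TPM), parts of the kinase that releases the pathway, were lowest. In the TNF superfamily 14 of 24 were expressed (58.3%, beside 51.2% of all protein-coding genes). The ligand CD70 (229, 229.5 and 223 TPM) and its receptor CD27 (188, 180.3 and 192 TPM) were both present and led the list. LTA (156 ± 3.67 TPM), LTB (125 ± 3.34 TPM) and TNF (95.7 ± 2.05 TPM) were expressed, while LTBR, the receptor of the lymphotoxin heterotrimer, had 0 counts, which allows up to 0.0671 TPM. CD40 was expressed at 87.6 ± 2.86 TPM and its ligand CD40LG had 0 counts, as had FASLG, TNFRSF18 and TNFSF8. FAS stood at 38.5 ± 0.682 TPM.

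Few receptors of the chemokine list were expressed. Of 23 chemokine and related receptors 5 were expressed (21.7%, beside 51.2% of all protein-coding genes). They were CXCR5 at 123, 126 and 124 TPM, CXCR4 at 94.2, 92.4 and 92.8 TPM, ACKR3 at 77.7, 73.3 and 68.4 TPM, CCR7 at 57.3, 54.2 and 54.1 TPM and GPR183 at 32.8, 36.6 and 38.8 TPM. CXCR5 and CXCR4 place germinal centre B cells in the light and dark zone, ACKR3 scavenges the CXCR4 ligand, and CCR7 and GPR183 act at the follicle's border. The exons of CXCR5 lie to 91.1% under a record on the other strand, and whether counting used strand is not given in the sources used here. These 5 held the same order in each library, and the highest of the other 18 was ACKR4 at 0.381 ± 0.266 TPM. Both CCR6 (0.209 TPM), which is hard to count, and CXCR3 (0.164 TPM) were low, and 8 receptors had 0 counts, CXCR1 among them. The confinement pathway of germinal centre cells was expressed at the receptor S1PR2 (126, 128 and 131 TPM), the G protein GNA13 (151, 153 and 155 TPM), ARHGEF1 (41.8 ± 0.839 TPM) and RHOA (253 ± 5.34 TPM). S1PR1, which draws cells out of tissue, was silent at 0.0329 ± 0.0374 TPM, and S1PR3 had 0 counts. S1PR2 was therefore the main receptor of its kind here, with S1PR4 at 32.3 ± 3.0 TPM.

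Cytokine receptors were expressed in 13 of 20 cases (65%, beside 51.2% of all protein-coding genes). IFNGR1 (115 ± 3.55 TPM), IFNGR2 (88.2 ± 2.71 TPM) and IL21R (84.8 ± 1.1 TPM) led, and IL2RG, the shared chain of the IL-21 receptor, stood at 61.2 ± 2.6 TPM although it is hard to count. IL6R, IL13RA1, IL18R1 and IL7R were each silent, at 0.00993, 0.00987, 0.00712 and 0.0149 TPM, while IL6ST, the signalling partner of IL6R, stood at 27.2 ± 0.457 TPM. Of the JAK, STAT and SOCS genes 13 of 19 were expressed and the other 6 were silent, with none between. STAT6 led at 68.8, 73 and 69.1 TPM and JAK1 followed at 57.9, 60 and 58.2 TPM. SOCS1 was expressed at 17.8 ± 0.799 TPM, SOCS3 was silent at 0.016 ± 0.0277 TPM and SOCS6 had 0 counts. SOCS proteins are feedback inhibitors of the pathway. In the Toll-like receptor list, 12 of 21 were expressed (57.1%, beside 51.2% of all protein-coding genes). TLR10 was highest at 123, 128 and 127 TPM, then CD180 (72.7 ± 1.93 TPM), TLR1 (27 ± 0.729 TPM), TLR6 (21.1 ± 0.433 TPM) and TLR7 (3.38 ± 0.308 TPM). TLR2, TLR3, TLR5 and TLR8 were silent at 0.0207, 0.0519, 0.00414 and 0.0316 TPM. TLR9 is listed with 0 counts, but nearly all of its exon bases lie under another record on the same strand, and its level could not be read. TLR10 and CD180 were the Toll-family genes of highest level, and the bacterial lipopeptide receptor TLR2, the partner of TLR1 and TLR6, was not expressed with them. Among sensors of cytosolic nucleic acid AIM2 led at 42.1, 41.1 and 40.8 TPM, CGAS was low at 0.132, 0.276 and 0.692 TPM and STING1, the adaptor below CGAS, was silent at 0.0574, 0 and 0 TPM.

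**Figure D3:**
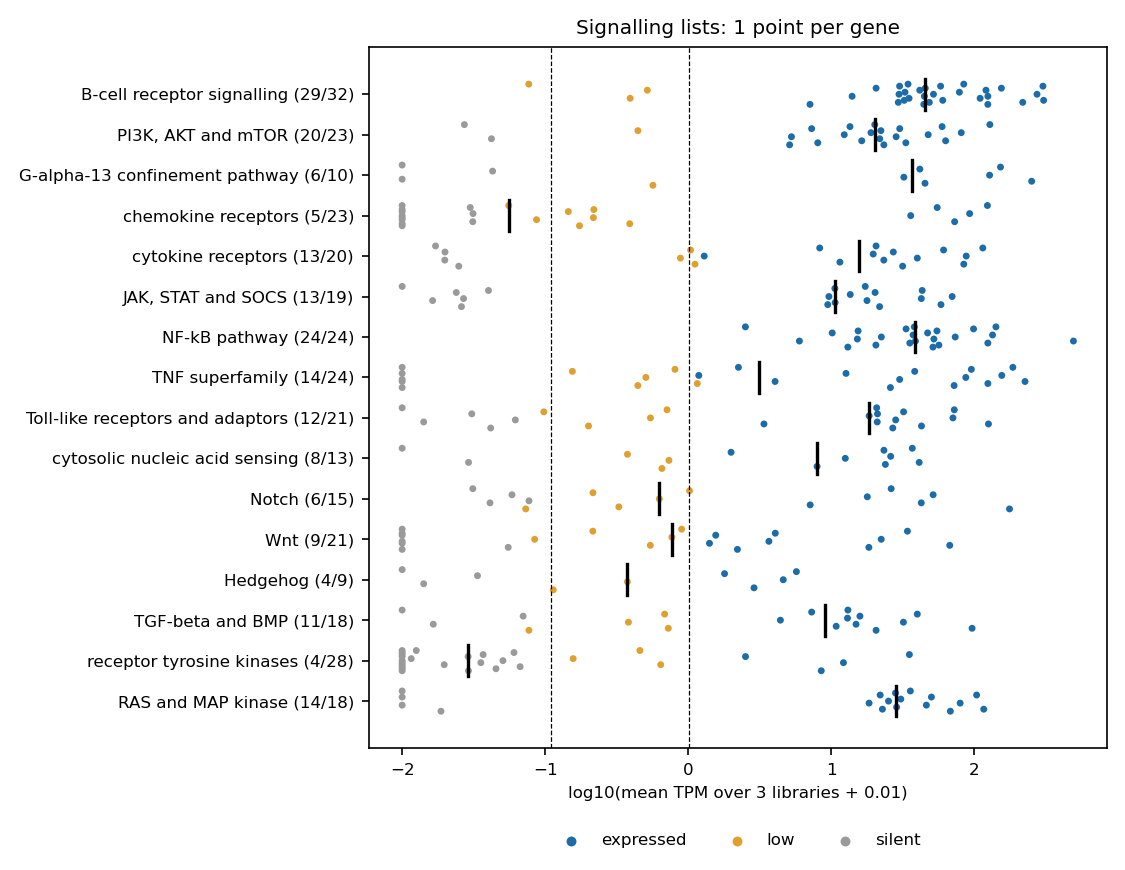
Each point is 1 gene of a signalling list, placed by the log10 of its mean TPM over 3 libraries plus 0.01 and coloured by class; black bars mark list medians and brackets give expressed over measured genes. The NF-kB and B-cell receptor lists lie above 1 TPM almost entirely, whereas receptor tyrosine kinases and chemokine receptors have medians under 0.1 TPM.

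Growth factor receptors had the largest silent share among the signalling lists. Of 28 receptor tyrosine kinases 21 were silent (75%, beside 35.9% of all protein-coding genes) and 4 expressed. MET, the receptor of hepatocyte growth factor, stood at 35.8, 34.9 and 35.2 TPM. IGF1R (12.2 ± 0.46 TPM), FGFR4 (8.53 ± 0.523 TPM) and ERBB2 (2.51 ± 0.167 TPM) were lower, and the insulin receptor INSR was silent at 0.0381, 0.0355 and 0.0485 TPM. MET was the highest in every library by more than 2-fold. ALK, AXL, FLT4, PDGFRA and PDGFRB had 0 counts. The kinases that act below these receptors were present: 14 of 18 RAS and MAP kinase genes were expressed, with MAP2K1 (117 ± 3.27 TPM) and NRAS (104 ± 0.983 TPM) on top. All 4 Sprouty genes, feedback inhibitors of receptor tyrosine kinases, were silent, SPRY1, SPRY2 and SPRY4 with 0 counts and SPRY3 at 0.00869 TPM.

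In the Notch list 6 of 15 genes were expressed (40%, beside 51.2% of all protein-coding genes). DTX1, a ubiquitin ligase and Notch target, was highest at 179, 176 and 176 TPM, and NOTCH2 was the expressed receptor at 18.2, 18 and 17.5 TPM. NOTCH1 (0.0439, 0.00767 and 0.0419 TPM) and NOTCH3 (0.0293, 0.0204 and 0.0139 TPM) were silent, NOTCH4 was low at 0.206 ± 0.0261 TPM, and no ligand was expressed, the highest being JAG2 at 0.619 ± 0.111 TPM. Of 21 Wnt genes 9 were expressed (42.9%), with CTNNB1 (67.6 ± 0.692 TPM) and APC (34.2 ± 0.20 TPM) on top and FZD5 (4.06 ± 0.0784 TPM) and FZD3 (3.67 ± 0.12 TPM) as the leading receptors. The nuclear effectors were lower, TCF7L2 at 1.55 ± 0.259 TPM, TCF7 at 0.206 ± 0.0371 TPM, LEF1 at 0.0745 TPM and TCF7L1 with 0 counts. In the Hedgehog list SUFU (5.71 ± 0.466 TPM), PTCH1 (4.62 ± 0.0564 TPM) and GLI1 (2.88 ± 0.243 TPM) were expressed, SMO (0.366 ± 0.126 TPM) and IHH (0.104 ± 0.0641 TPM) were low, and SHH (0.0237 ± 0.0267 TPM), GLI2 (0.00415 ± 0.00719 TPM) and GLI3 (0 counts) were silent. In the TGF-beta and BMP list 11 of 18 were expressed (61.1%), TGFB1 first at 96.9 ± 4.82 TPM and the receptors TGFBR1 and TGFBR2 at 40.1 and 20.6 ± 0.532 TPM. SMAD5 carried 32.1 ± 0.463 TPM against 0.0602 ± 0.0188 TPM for its paralog SMAD1, and SMAD9 had 0 counts.

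Of 275 genes on the metabolic lists 191 were expressed (69.5%), beside 51.2% of all protein-coding genes; the share depends on which lists were made. Of the 191, 71 stood at 100 TPM or more in each library. The 32 glycolysis genes summed to 12253, 12242 and 12260.0 TPM. ENO1 stood at 1754, 1758 and 1746 TPM, LDHA, which makes lactate, at 965, 979 and 979 TPM, and TPI1 at 886, 879 and 889 TPM. Each step from glucose entry to lactate had at least 1 expressed gene, with SLC2A5, known as a fructose transporter, at 125, 119 and 119 TPM and SLC2A1, the main glucose transporter of blood cells, at 95.8, 93.9 and 97 TPM. SLC2A5 thus exceeded SLC2A1 in each library. Lactate transport rested on SLC16A1 (175, 168 and 172 TPM), with SLC16A3 silent at 0.0447, 0.0312 and 0.071 TPM. Of the switches at pyruvate PDHA1 stood at 151 ± 3.88 TPM, PFKFB4 at 83.1 ± 1.18 TPM, PDK1 at 60.6 ± 0.583 TPM and PDK4, silent, at 0.0212 ± 0.0367 TPM. In the list of gluconeogenesis and glycogen 4 of 13 genes were expressed and 5 silent (38.5%, near the 35.9% of all protein-coding genes). FBP1, G6PC1 and G6PC2 had 0 counts, PC was at 0.0301 ± 0.0271 TPM, and GYS1 (42.3 ± 0.796 TPM) and PYGB (21.8 ± 1.61 TPM), of glycogen metabolism, PCK2 (33 ± 0.322 TPM) and G6PC3 (20.9 ± 0.581 TPM) were expressed.

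The pathways that feed growth were expressed with few gaps. The share to set beside each of these lists is the 51.2% of all protein-coding genes that were expressed. In the pentose phosphate pathway 8 of 10 were expressed, with PGD first at 587, 588 and 579 TPM and TKTL1 and TKTL2 silent. In the tricarboxylic acid cycle 22 of 25 were expressed, led by MDH2 (280.1 ± 1.71 TPM) and CS (215 ± 1.19 TPM). The 3 silent genes were ME1 (0 counts, up to 0.124 TPM), ME3 (0.00835 ± 0.0145 TPM) and OGDHL (0.00764 ± 0.0132 TPM), so ME2 (60.5 ± 1.05 TPM) was the only malic enzyme expressed. Nucleotide synthesis and salvage was expressed in 24 of 25 genes: PAICS, of purine synthesis, at 372, 372 and 372 TPM, RRM1 at 263 ± 1.18 TPM, IMPDH2 at 256.4 ± 4.35 TPM, and only the mitochondrial thymidine kinase TK2 short of 1 TPM (0.0911 ± 0.0369 TPM). Serine and one-carbon enzymes were expressed in 16 of 17 genes, MAT2A first (254 ± 3.72 TPM) and GLDC low (0.475 ± 0.0773 TPM). PHGDH, the first enzyme of serine synthesis, stood at 37.9, 37.4 and 37.9 TPM and PSAT1, the next, at 227, 214 and 225 TPM. Of 11 polyamine genes 9 were expressed, ODC1, a classical MYC target, first at 486, 479 and 472 TPM.

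Amino acid metabolism showed single absences. GLUL, which makes glutamine, had 0 counts in each library, which allows up to 0.0327 TPM. ASS1, which makes the precursor of arginine, was at 0.0456, 0.0637 and 0 TPM and ASL, the next enzyme, at 11.6, 9.96 and 9.05 TPM. Transport was represented by SLC38A1 (209 ± 1.34 TPM), SLC1A5 (159 ± 3.05 TPM) and SLC7A5 (158 ± 2.07 TPM). ASNS is listed at 10.1 ± 0.905 TPM but is hard to count.

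Sterol genes were mostly expressed, and genes of fatty acid metabolism about as often as protein-coding genes in general. Of 23 sterol genes 19 were expressed, and HMGCS1 at 502, 498 and 498 TPM, SQLE at 346 ± 4.93 TPM and FDPS at 291 ± 4.63 TPM led the list. In the list of fatty acid synthesis, elongation and oxidation 21 of 36 were expressed (58.3%) and 11 silent (30.6%). Over all protein-coding genes 51.2% were expressed and 35.9% silent. SCD, the desaturase, stood at 1138, 1149 and 1152 TPM, ACLY at 637, 630.1 and 645 TPM and FASN at 344, 334 and 343 TPM. On the side of oxidation HADHA stood at 210.2 ± 0.884 TPM, and the entry enzyme was split: CPT1A, the form of most tissues, was low at 0.126, 0.0878 and 0.0399 TPM and CPT1B, listed at 2.4 ± 0.239 TPM, is hard to count. ACSL1 (175 ± 0.442 TPM) was expressed whereas ACSL4, whose product favours arachidonic acid, had 0 counts (up to 0.0414 TPM). FABP5 (149.9 ± 6.19 TPM) was the only fatty acid binding protein of the list with counts, FABP1, FABP3, FABP4 and FABP7 having 0.

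Redox genes divided within families. The 6 peroxiredoxins were all expressed, from PRDX4 (71.1 ± 1.79 TPM) to PRDX1 (747, 762 and 756 TPM), and TXN stood at 539.9 ± 13.4 TPM. Among glutathione peroxidases GPX4 (212 ± 2.91 TPM) and GPX1 (59.9 ± 2.52 TPM) were expressed and GPX2, GPX3, GPX5, GPX6, GPX7 and GPX8 were silent. HMOX2 was expressed at 57.8, 57.8 and 57.7 TPM and the inducible HMOX1 was silent at 0, 0.0417 and 0 TPM. SOD1 stood at 258 ± 6.26 TPM; SOD2 was not analysed here. Xenobiotic metabolism had 5 of 21 genes expressed (23.8%, beside 51.2% of all protein-coding genes). They were ADH5 (39 ± 0.917 TPM), NQO2 (26.5 ± 1.08 TPM), NQO1 (23.2 ± 1.4 TPM), ALDH1A1 (5.04 ± 0.541 TPM) and CYP2E1 (2.35 ± 0.154 TPM). GSTP1 was low by the rule, at 1.4, 0.654 and 1.41 TPM, since 1 library lay under 1 TPM.

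Paralog families were set against each other by the share of the family's summed TPM that the highest member held. Across 78 families with an expressed member the median share was 73.2%, and no share had an SD above 2.36 percentage points over the libraries. In 16 of 79 families a single member was expressed, in 33 every member was, and in 1, the GATA factors, none was. A share of 90% or more was held by the highest member in 24 families and of 99% or more in 16. Of 117 pairs of expressed paralogs that are neighbours in level, 10 overlapped in their ranges over the 3 libraries, so most family orders were the same in every library.

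Some families of lineage regulators were one-sided. PAX5 held 99.4% ± 0.18 of the PAX family, EBF1 99.9% ± 0.0259 of the EBF family, BCL6 99.99% ± 0.00754 of its pair with BCL6B, and RUNX3 96.8% ± 0.195 of the RUNX family. MYC stood at 140.2, 144 and 142 TPM and held 99.9% ± 0.0287, with MYCL low at 0.19, 0.133 and 0.207 TPM and MYCN at 0 counts. All 6 GATA genes were silent, 5 with 0 counts and GATA3 at 0.0129 TPM. BACH1 (29.3 TPM) exceeded BACH2 (2.31 TPM), the B-cell member, 12.8-fold. Elsewhere several members were present at once. SPI1 (PU.1), SPIB and SPIC were all expressed, at 35.9, 36.6 and 39 TPM, 35.6, 37.5 and 37.6 TPM and 21.5, 26.3 and 26.3 TPM. The ranges of SPI1 and SPIB overlapped, while SPIC lay below both in each library. The 5 Ikaros factors were all expressed, IKZF3 first at 139 ± 1.94 TPM and IKZF4 last at 4.29 ± 0.47 TPM, but with the longest RefSeq transcript as length IKZF1 came first and IKZF3 held 31.7% in place of 45.3%. POU2F2 (49.8 ± 0.363 TPM) exceeded POU2F1 (27.1 ± 0.213 TPM), TCF3 exceeded TCF12 5.99-fold, and IRF8 (109.6 ± 1.57 TPM) led the interferon regulatory factors. ID2 (77.6, 79.3 and 81.7 TPM) lay above ID3 (47.2, 47.9 and 41.6 TPM) in each library; ID proteins block E proteins, and ID3 is often inactivated in Burkitt lymphoma.

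Cell cycle and survival families showed which paralog was in use. CCND3 was the only D cyclin expressed, at 24.8, 23.2 and 23.8 TPM, with CCND1 at 0.0294 and CCND2 at 0.0212 TPM. Its kinases CDK4 (96.8, 99.3 and 97.6 TPM) and CDK6 (94.3, 95 and 97.7 TPM) had overlapping ranges. CCNA2 stood at 225, 217 and 213 TPM against 0 counts for CCNA1, CCNB2 (90.3 TPM) lay above CCNB1 (78 TPM) and CCNE2 (21.8 TPM) above CCNE1 (10.7 TPM). All 4 genes of the INK4 family were expressed, including CDKN2A at 38, 36.3 and 36 TPM. The CDKN2A level is that of the whole gene record and does not tell which of its transcripts was present. TP63, a factor of squamous epithelium, stood at 25.1, 22.8 and 23.4 TPM, against 0.0708 TPM for TP73. BCL2L1 (238, 246 and 240.1 TPM) and MCL1 (222, 223 and 222 TPM) were the leading survival genes, BCL2 stood at 20.5, 21.4 and 20.2 TPM and BCL2L10 had 0 counts. Of the proteins that oppose them, BCL2L11 (BIM) led at 187, 184 and 186 TPM, followed by PMAIP1 (NOXA) at 101, 105 and 108 TPM. BBC3 (PUMA) stood at 4.13 ± 0.314 TPM and HRK was low at 0.898 ± 0.14 TPM.

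Kinase families differed in how their summed level was divided. FGR held 57.7% ± 0.263 of the SRC family, ahead of LYN, FYN (52 TPM), BLK (32.5 TPM) and LCK, while YES1 was silent at 0.0090 TPM and SRC low at 0.302 TPM. BTK held 76.5% ± 0.524 of the TEC family, PIK3CD 59.6% ± 0.437 of the class I PI3K catalytic subunits and PIM2 51.7% ± 1.6 of the PIM kinases. AKT1 and AKT2 were expressed at 28.5 ± 1.55 and 19 ± 0.301 TPM. STAT5B (20.4, 23.3 and 21.8 TPM) was expressed and its near twin STAT5A was silent (0, 0.0301 and 0.0206 TPM). NRAS led the RAS genes with 49.8% ± 0.582, and JAK1 the JAK kinases with 48% ± 0.482.

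Most chromatin families had expressed members beside the highest, whose share ranged from 31.5% (KMT2A) to 99.9% (ACTL6A). SMARCA4 stood at 76.4, 75.8 and 75.1 TPM and SMARCA2, the other SWI/SNF ATPase, at 12.3, 12.3 and 12.4 TPM, so SMARCA4 held 86% ± 0.149. Degradation of the protein need not alter the RNA, and the SMARCA4 level is no check of the degron. ARID1A held 79.1% ± 0.0316 against ARID1B, SMARCC1 77.5% ± 0.288 against SMARCC2, and SS18 83.2% ± 0.289 against SS18L1. SMARCD2 (82.5 TPM) and SMARCD1 (62.6 TPM) were both expressed, SMARCD3 was low. The neuronal ACTL6B was low at 0.0772 ± 0.134 TPM, and ACTL6A stood at 59.8 ± 0.669 TPM. EZH1 and EZH2, the alternative catalytic subunits of PRC2, had overlapping ranges at 34.1, 35.3 and 36.3 TPM and 33.6, 34.3 and 34.5 TPM, so that EZH1 held 50.8% ± 0.489; with the longest RefSeq transcript as length its share was 27.7% and EZH2 came first. The 4 KMT2 genes lay between 26.4 and 39.2 TPM, KMT2A first by the deposited lengths and KMT2C by RefSeq lengths, EP300 (61.3 ± 1.16 TPM) exceeded CREBBP (22 ± 1.01 TPM) 2.79-fold, and TET1 was silent at 0.00789 TPM beside TET3 at 15.4 TPM. DNMT1 held 96.8% ± 0.309 of the DNA methyltransferases, with DNMT3B at 3.26 ± 0.428 TPM and DNMT3A low at 0.355 ± 0.0478 TPM.

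Metabolic families differed in how many forms were on, and forms known from single tissues were off in some and expressed in others. PGK1, PKM, COX6A1, COX7A2 and ENO1 each held over 99% of their families, and PGK2 of testis, COX6A2 and COX7A1 of muscle had 0 counts. These 0 counts allow up to 0.254 TPM for PGK2, 0.873 TPM for COX6A2 and 0.705 TPM for COX7A1, each above the 0.1 TPM threshold. PKLR, the liver and red cell pyruvate kinase, was silent at 0.0145 TPM. Hexokinase was divided between HK2 (178, 179 and 182 TPM) and HK1 (68.8, 66.3 and 65.3 TPM), and PFKL, PFKM and PFKP were all expressed, at 73.8, 68.4 and 46.2 TPM. ALDOC, the brain aldolase, was listed at 270.2, 278 and 274 TPM and ALDOA at 24.5, 24.5 and 24.3 TPM. Of ALDOA's exon bases 42.8% lie under another record on the same strand and 59.1% of its 31-base words occur in other genes, and the part of this in its level was not tested. SLC25A5 held 93% ± 0.409 of the adenine nucleotide translocators, but SLC25A6 is pseudoautosomal, so this share is an upper value. Both COX4 isoforms were expressed, COX4I1 at 159, 160.0 and 161 TPM and COX4I2, an isoform known from lung, at 16.3, 19.7 and 15.9 TPM. ENO3, the muscle enolase, stood at 4.7 ± 0.131 TPM and SLC25A4, the translocator of heart and muscle, at 64.5 ± 3.37 TPM. Of the ribosomal pairs RPS27L (13.2 TPM), RPL22L1 (76.2 TPM) and RPL39L (24.7 TPM) were expressed beside their main forms. RPL10L had 0 counts, which allows up to 0.535 TPM.

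**Figure D4:**
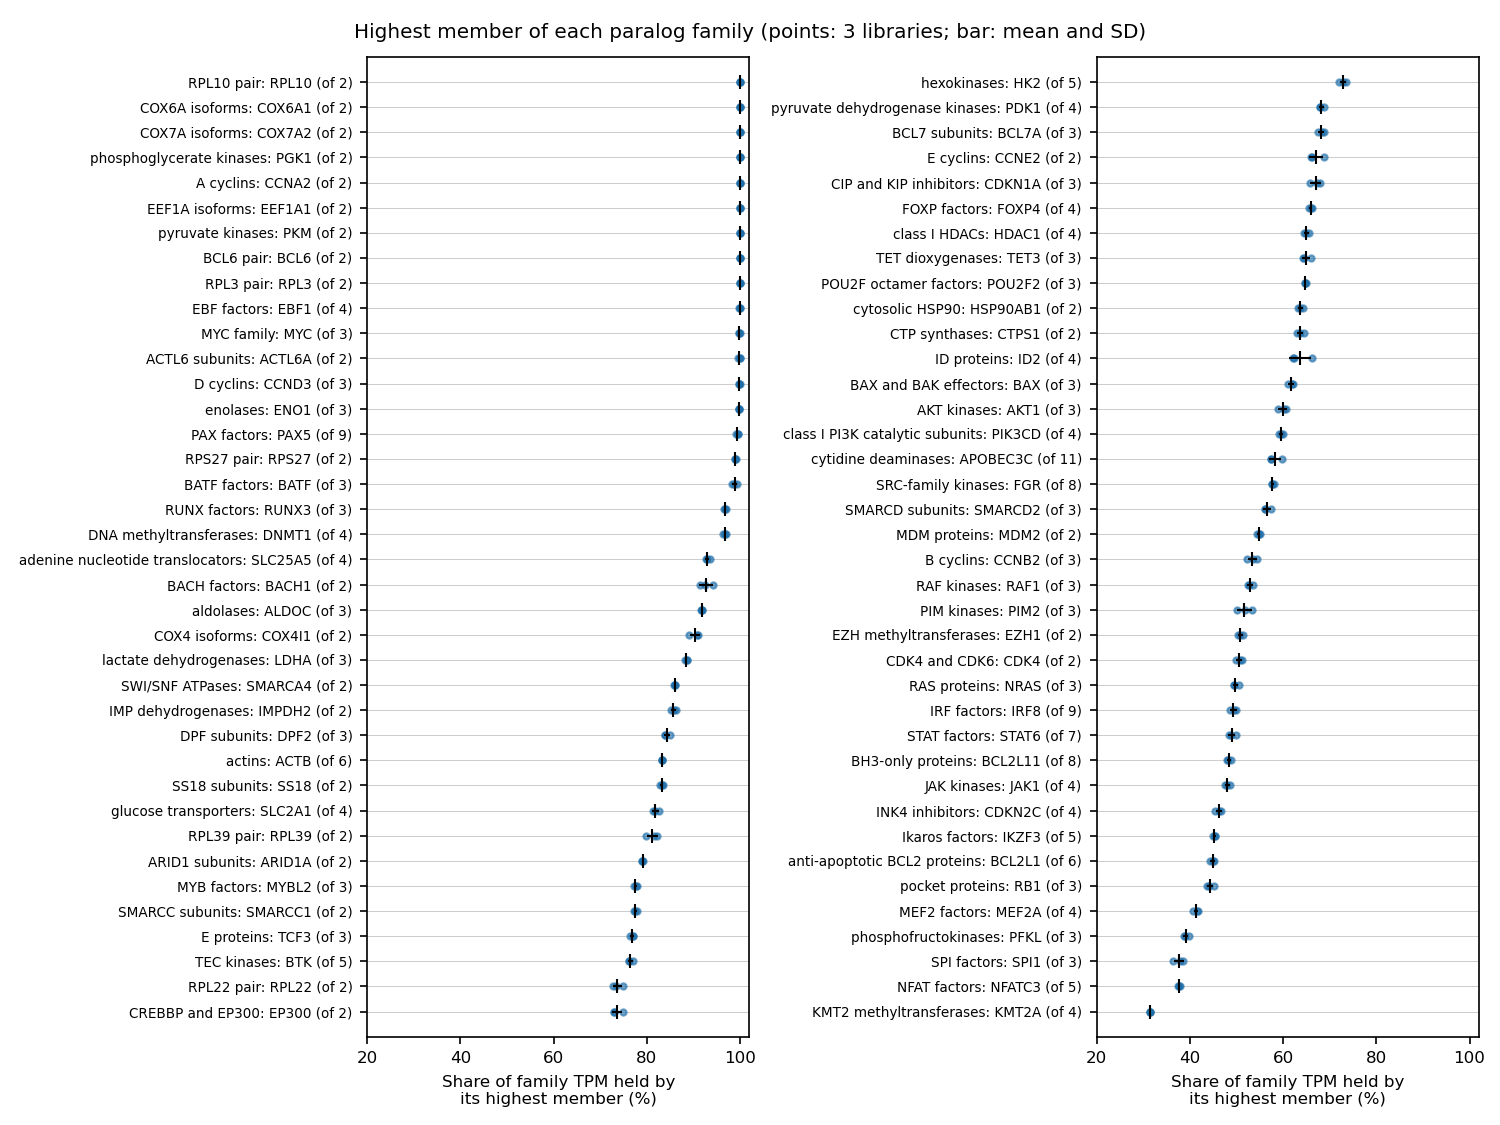
For 76 paralog families, the percent of the family's summed TPM held by its highest member, named after the colon with the family's size; points are the 3 libraries and the black bar their mean with SD. The left panel runs from pairs with a single active gene at 100% down to EP300, the right panel from HK2 down to KMT2A, whose 31.5% ± 0.0749 is the lowest share; by RefSeq lengths KMT2C, not KMT2A, is highest in that family.

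Promoter sequence was described by class. The 11307 protein-coding genes with a single RefSeq promoter were described by the number of CpG dinucleotides, the site of DNA methylation, in the 300-base window. The median was 27 CpG for 5983 expressed genes, 13 for 1356 low genes and 10 for 3968 silent genes. Of windows with fewer than 5 CpG, 10.9% belonged to expressed genes, against 73.5% of windows with 25 to 29. The TATA word TATAAA, on either strand, was in 5.30% of expressed and 17.6% of silent windows, and the E-box CACGTG in 11% and 6.25%. The octamer ATGCAAAT, on either strand, was in 1.5% and 1.71%, with 4.13% of windows of genes at 100 TPM or more. B-cell surface genes went against the general pattern: 13 of 14 expressed genes of that list with a single promoter had fewer than 10 CpG, with a median of 3.5, and all 10 class II genes did, with a median of 3. Over all expressed windows 7.45% had fewer than 10. Low CpG was not particular to these lists: the median was 4 for 5 silent and 5 for 3 expressed T-cell and NK-cell genes, and 2 for 6 silent myeloid genes. B-lineage transcription factors had a median of 29 over 10 expressed genes, and the 10 silent receptor tyrosine kinases with a single promoter a median of 31.5.

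The 250 bases before the start are shown for 6 genes, CpG in capitals, because they give examples that follow the general pattern and examples that go against it, chosen after their values were seen: 2 of the paralog pairs with a single expressed member, an expressed gene and a silent one. PGK1 lies on the plus strand at chrX:78103998-78104247, PGK2 on the minus strand at chr6:49787286-49787535, CCNA2 on the minus strand at chr4:121823884-121824133, CCNA1 on the plus strand at chr13:36431705-36431954, CD79A on the plus strand at chr19:41877029-41877278 and KLF2 on the plus strand at chr19:16324576-16324825, all in RefSeq's GRCh38.p14.
PGK1: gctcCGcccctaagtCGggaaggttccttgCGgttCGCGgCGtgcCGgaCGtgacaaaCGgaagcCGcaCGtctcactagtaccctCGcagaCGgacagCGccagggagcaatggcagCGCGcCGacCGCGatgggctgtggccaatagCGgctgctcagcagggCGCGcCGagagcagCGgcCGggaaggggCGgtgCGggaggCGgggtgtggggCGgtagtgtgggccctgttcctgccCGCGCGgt
PGK2: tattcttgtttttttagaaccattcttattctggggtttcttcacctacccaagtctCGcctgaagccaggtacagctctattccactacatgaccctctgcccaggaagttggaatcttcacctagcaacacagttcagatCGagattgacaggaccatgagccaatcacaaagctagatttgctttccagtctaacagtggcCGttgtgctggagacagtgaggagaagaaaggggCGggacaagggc
CCNA2: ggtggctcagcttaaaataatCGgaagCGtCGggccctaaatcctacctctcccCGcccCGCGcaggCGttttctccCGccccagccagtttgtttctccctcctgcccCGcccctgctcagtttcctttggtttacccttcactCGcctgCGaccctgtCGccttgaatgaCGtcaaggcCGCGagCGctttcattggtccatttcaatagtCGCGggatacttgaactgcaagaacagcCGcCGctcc
CCNA1: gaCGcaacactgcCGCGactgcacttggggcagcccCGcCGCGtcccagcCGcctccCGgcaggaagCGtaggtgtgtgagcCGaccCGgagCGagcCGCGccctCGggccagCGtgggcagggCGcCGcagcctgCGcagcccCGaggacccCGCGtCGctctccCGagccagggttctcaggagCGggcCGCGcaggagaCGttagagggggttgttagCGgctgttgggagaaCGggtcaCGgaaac
CD79A: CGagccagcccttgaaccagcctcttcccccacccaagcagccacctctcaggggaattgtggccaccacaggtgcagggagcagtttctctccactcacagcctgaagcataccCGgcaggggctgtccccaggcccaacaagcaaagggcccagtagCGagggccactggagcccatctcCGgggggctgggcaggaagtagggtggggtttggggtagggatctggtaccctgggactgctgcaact
KLF2: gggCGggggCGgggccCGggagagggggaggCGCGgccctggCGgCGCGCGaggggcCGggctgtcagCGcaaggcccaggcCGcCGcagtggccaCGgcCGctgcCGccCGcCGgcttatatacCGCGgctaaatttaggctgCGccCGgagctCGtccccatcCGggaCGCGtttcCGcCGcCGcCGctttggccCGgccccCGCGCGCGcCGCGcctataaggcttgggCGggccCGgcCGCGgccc
The pair PGK1 and PGK2 followed the general pattern, with 38 CpG in the 300-base window of the expressed gene (503 TPM) and 6 in that of the gene with 0 counts. The cyclin pair did not: CCNA1, with 0 counts, had 35 CpG and the expressed CCNA2 had 26. KLF2, with 0 counts, had 49, and CD79A, at 607 TPM, had 4. The classes overlapped widely in CpG content: 34.8% of silent and 77.1% of expressed windows held 20 or more, and low genes lay near silent ones. DNA methylation was not measured in these libraries.

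**Figure D5:**
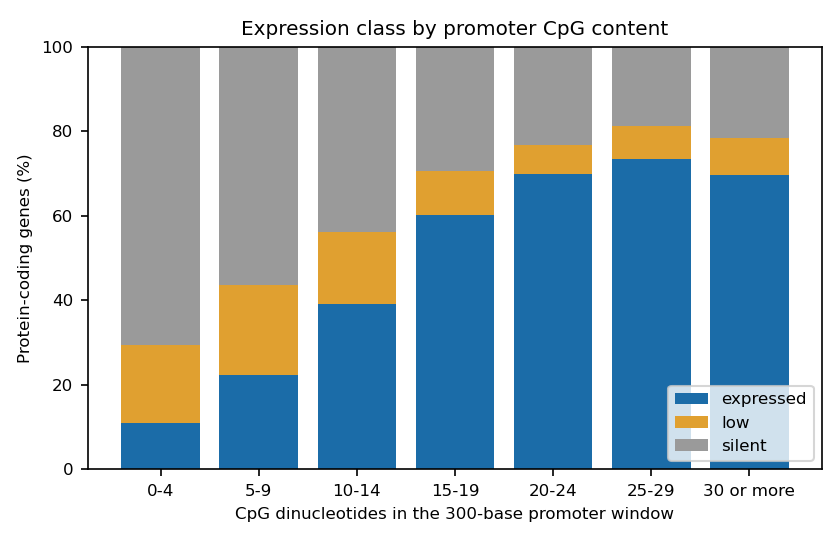
Percent of protein-coding genes in each class (y axis) for 7 ranges of the number of CpG in the 300-base promoter window (x axis). The share of expressed genes goes from 10.9% below 5 CpG to 73.5% at 25 to 29 CpG and is 69.7% at 30 or more.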

How the data were processed

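RNA from Raji cells was measured by bulk sequencing of 12 libraries, of which the 3 of the high GFP gate with DMSO were used. Total RNA was depleted of ribosomal RNA with a kit, per the labels' protocols. The deposited file holds whole-number counts per gene record with each record's exon length. FastQC, STAR, featureCounts of Subread, R 4.2.1 and the build hg38 are named in the submitters' processing notes, with no settings, so strand and multi-mapping rules are not given in the sources used here. All 12 count columns matched a sample.

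Counts were divided by length and scaled to the same total per library over 60707 records to give TPM (3 broken lines left out) with Python 3.11.15, pandas and NumPy. Names came from the gene name table (99.7% of records) and gene types from GENCODE release 29 (96.3%). The Length column equals the merged exon length. The floor is 3 counts per library. A record was called hard to count if it is pseudoautosomal, if over 50% of its exon bases lie under another record on the same strand, or if over 50% of its 31-base words occur in another gene. No groups were compared and no test was made. The conversion was tested on simulated data.

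45 lists and 79 paralog families with 1020 symbols were used; 1019 were found. Members and lists were chosen with earlier results of these data known. In each list the 5 highest and 5 lowest genes could be named, all members of lists and families of up to 12, the 15 highest nuclear protein-coding and 5 highest non-coding genes, the leading V segment of each locus, and MYC, BCL6, SMARCA4, SMARCA2 and PRDM1; other named genes were chosen after their values were seen. Promoters came from RefSeq (GRCh38.p14) for genes with 1 entry, which are 11307 of 19810 nuclear protein-coding genes with a symbol. Some members of the lists and 2 families are not reported by name here.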

Additional observations from a re-analysis of the deposited data

How the results depend on the processing

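The counts of expressed and silent genes, over all protein-coding genes and in each of the 4 themes, stayed within 1.5 times of those reported under each of these alternatives: both other TPM denominators, CPM without length correction, RefSeq transcript lengths, both other pairs of thresholds, the mean in place of each library, and each library left out. Expressed protein-coding genes ranged from 9657 (thresholds of 2 and 0.2 TPM) to 10597 (0.5 and 0.05 TPM) over these. Silent genes ranged from 6239 to 7967 over the same alternatives, and 7271 had at most 3 counts in each library. A denominator of nuclear protein-coding genes alone raised every level by 0.75 on the log2 scale, and one without records under 300 bases by 0.19. Among listed genes no expressed gene became silent and no silent gene became expressed under any of these settings.

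The next settings were chosen after seeing the data. Counted only where 3 counts would be under 0.1 TPM, 2786 genes were silent. With hard-to-count records left out, 10039 genes were expressed and 6594 silent, and the listed silent genes of the lineage theme went from 87 to 77.

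The median share of the highest family member was 73.2% in the report, 71.8% from counts without length correction and 70.8% with RefSeq lengths, and 72.7% to 73.5% with a library left out. The leading member changed in 8 families with RefSeq lengths (Ikaros, MEF2, FOXP, INK4, CIP and KIP, MDM, EZH and KMT2) and in 15 without length correction, and between SPI1 and SPIB without replicate 3. No paired analysis was possible because the values come from no test and only 1 group was used.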

Other observations

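Gene families outside the lists, gathered by symbol pattern after the levels had been seen, gave a further description of which parts of the genome this line reads. Families of the basic machinery were expressed almost in full: 82 of 84 cytosolic ribosomal protein genes, 77 of 78 mitochondrial ribosomal protein genes, 48 of 50 proteasome genes and 35 of 35 genes of aminoacyl-tRNA synthetases. Families known from other tissues began at 0 of 94 keratin-associated protein genes, 0 of 13 interferon alpha genes and 0 of 22 fibroblast growth factor genes expressed. Of 56 genes with a KRT number in the symbol 2 were expressed, KRT10 and the antisense-named KRT10-AS1, so KRT10 was the only keratin among them. Above these lay 3 of 24 claudins, 7 of 53 clustered protocadherins and 7 of 44 collagens. The range ended at 9 of 24 taste 2 receptors, of which TAS2R30 was highest at 10.5, 9.06 and 11 TPM. The 518 genes with a ZNF number as symbol, mostly zinc finger factors, were expressed in 353 cases (68.1%), above the 51.2% of all protein-coding genes.

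Some members stood out from silent families. Of 389 olfactory receptor genes 337 were silent and 13 expressed, and the 4 highest belonged to the OR51 group on chromosome 11. OR51B5 (chr11:5303444-5505652, hg38) stood at 137, 133 and 134 TPM, OR51B4 (chr11:5301014-5301946) at 110.0, 114 and 106 TPM, OR51B2 (chr11:5323359-5324297) at 43.4, 37.6 and 40.5 TPM and OR51I1 (chr11:5440570-5441514) at 38.2, 46.4 and 36.9 TPM. By these coordinates the OR51B5 record spans OR51B2 and OR51I1, and OR51B4 lies beside its edge. The 4 levels may therefore not be independent, and whether reads of a shared longer RNA fill these records of the OR51 group was not tested. The beta-globin gene HBB, which lies beside this group (chr11:5225464-5229395), was low at 0.633, 0.59 and 0.403 TPM.

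Of 19 WNT ligand genes 3 were expressed, WNT10A at 87.5, 90.4 and 90.2 TPM, WNT5A at 3.99 TPM and WNT3 at 1.16 TPM, so WNT10A exceeded the others in every library. Of 45 defensin genes 1 was expressed, DEFB123 at 36.5, 40.2 and 33.4 TPM. Of 39 HOX genes 7 were expressed, HOXB4 (16.6 ± 1.12 TPM) and HOXC4 (15.7 ± 0.57 TPM) first. Of 97 genes with a KCN symbol, mostly potassium channel subunits, 14 were expressed, KCNN3 (66.6 ± 0.557 TPM) and KCNQ5 (57.1 ± 1.02 TPM) first. Of 38 interleukin genes 7 were expressed, IL32 (66.1 ± 1.98 TPM), IL16 (15.4 ± 0.536 TPM) and IL10 (12 ± 0.307 TPM) first.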
